A study of Danio rerio with 4 samples.

Results

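The regions described here are 3556 stretches of open chromatin in the zebrafish embryo that were called in all libraries and that ranked higher outside the periderm than in it. They are 3.21% of the 110754 regions with a peak in every list and 0.512% of all 694637 merged regions. The regions were selected on measured values. Peaks of the 4 deposited lists that overlapped were merged, the value of each peak was turned into a percentile within its own list (the share of peaks at or below it), and a region took its highest peak in each list. A region was kept when the lower of its GFP-negative percentiles was at least 25 points above the higher of its GFP-positive percentiles. These regions are called members below, and that difference is called the gap. Because all 4 lists chose the members, the gap, the peak values and the peak widths are given as a description with no test.

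The libraries were made at the 4-somite stage from a Tg(krt4:GFP) line, in which the promoter of krt4, a keratin gene, drives GFP. The 2 GFP-negative libraries hold the sorted cells without GFP, which are all other cell types of the embryo together. The 2 GFP-positive libraries hold the sorted cells with GFP, which are taken as the periderm. Embryos came from separate incrosses, and 50000 cells of each population were sorted per batch. All groups carry the same transgene, and none was treated. In a mixture of cell types, fewer cells with an open site and a less open site in each cell cannot be told apart, and this holds for every GFP-negative value. The purity of the sort was not measured here. In a weak GFP-positive peak, a weakly open site of the periderm and other cells carried over in the sort cannot be told apart.

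ATAC-seq uses the Tn5 transposase to cut DNA that is not wrapped in nucleosomes, so that promoters and enhancers appear as nucleosome-free regions (NFRs). The periderm is the outermost epithelial layer of the embryo and a barrier to its surroundings, while the remaining cells at this stage include neural, mesodermal, endodermal and basal epidermal precursors. Sites that are open in both populations commonly include promoters of genes that most cells use, as well as enhancers shared by several cell types. No gene, promoter or sequence is assigned to a member here, because a genome and an annotation of the build of the lists were not used.

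The lists differed in length and depth. The GFP-negative lists held 455867 and 333588 peaks and the GFP-positive lists 336052 and 190059 peaks. The tag numbers implied by the steps of the deposited values were, in units of 1000000, 42.4 and 37.6 in the GFP-negative libraries and 24.9 and 29.5 in the GFP-positive libraries. Tags are the units that the peak caller piles up, and the tags at the summit of a peak were likewise inferred from the steps of the deposited values and were not counted from reads. The scaled height is that number per 1000000 implied tags of the library. Both GFP-negative libraries were deeper than both GFP-positive libraries, and the part of depth in the class was not tested. The study's 5 elements around cldne, which encodes a claudin of tight junctions, gave a check of the labels. Both GFP-positive lists showed peaks at all 5 elements. GFP-negative replicate 1 showed a peak at 1 element, and GFP-negative replicate 2 at 0. The elements held 0 members, but a member needs a peak in every list, so the rule largely set this number. It is therefore no part of the check. The study picked these elements on the same libraries, so the check covers only whether the labels match those of the study.

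Members were somewhat lower than the typical shared region in the GFP-negative lists and much lower in the GFP-positive lists. Their median percentile was 83.4 and 79.2 in GFP-negative replicates 1 and 2, against 37.3 and 35.3 in GFP-positive replicates 1 and 2. Over all shared regions the medians were 87.4 and 82.4 in the GFP-negative lists and 82.7 and 69.1 in the GFP-positive lists. In implied tags before scaling, the median summit of a member held 21 tags in each GFP-negative list and 8 and 10 tags in the GFP-positive lists. The highest GFP-positive summit of any member held 12 tags in replicate 1 and 17 tags in replicate 2, whereas GFP-negative summits reached 96 and 97 tags.

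**Figure D1:**
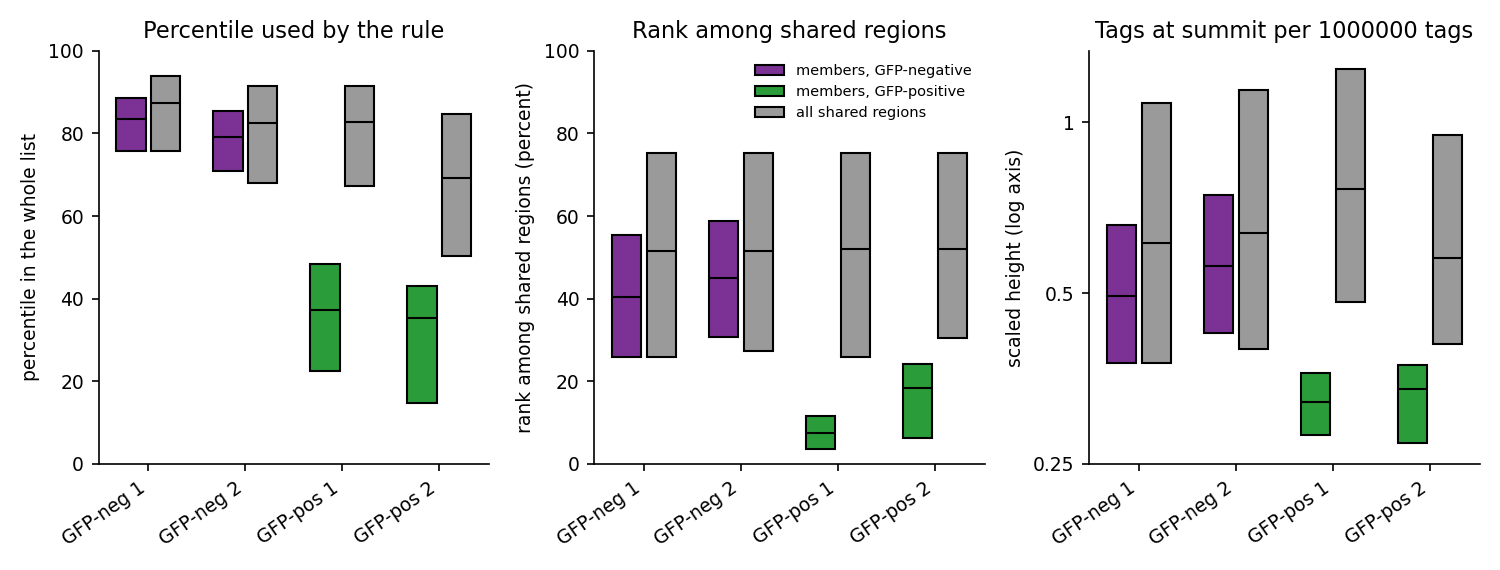
Values of the 3556 members (colour) beside all 110754 shared regions (grey) in each list, GFP-negative lists on the left. Boxes span the quartiles and the line is the median. The vertical axes are the percentile in the whole list, the rank among shared regions in percent, and the scaled height (tags at the summit per 1000000 implied tags) on a log axis. The boxes of the members lay near or below those of the shared regions in GFP-negative lists. In GFP-positive lists they lay below the lower quartile of the shared regions. Single members reached higher, up to percentile 69.1 in GFP-positive replicate 2.

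Few members were among the tallest sites outside the periderm. Only 237 members (6.66%) were in the upper 10% of both GFP-negative lists, against 30520 of all shared regions (27.6%). In contrast, 2577 members (72.5%) were below the middle of both GFP-positive lists, against 8002 shared regions (7.23%). The rule sets part of this pattern, since a gap of 25 points cannot occur above a GFP-positive percentile of 75. Of the shared regions, 35917 (32.4%) stayed at or below that limit in both GFP-positive lists, and 9.9% of these were members.

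The gap had a median of 32.82 points (quartiles 28.29 and 39.68) and reached 80.14 points. It was under 30 points in 1256 members (35.3%), at least 40 points in 878 (24.7%) and at least 60 points in 64 (1.8%). Replicates of 1 group also differed. The median difference between the lists of a group was 4.97 points for GFP-negative and 12.93 points for GFP-positive, and the rule itself requires a gap of at least 25 points. The upper quartiles of that difference were 9.56 and 22.63 points, and the largest differences were 44.79 and 61.01 points. Replicates of a group could thus differ by as much as the limit.

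At the low end of a list, single tags moved the percentile by many points. In GFP-positive replicate 1, summits of 5, 6, 7, 8 and 9 tags stood at percentiles 1.66, 9.83, 22.6, 37.3 and 48.3. In GFP-positive replicate 2, summits of 8, 9 and 10 tags stood at 14.7, 24.4 and 35.3. Of the members, 462 (13%) were at the lowest or second lowest tag value of GFP-positive replicate 1, against 1.27% of shared regions. For GFP-positive replicate 2 the numbers were 376 members (10.6%), against 2.27% of shared regions. A GFP-positive percentile of a member thus rested on few implied tags, and the deposited lists give no counting error for it.

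The 5 members with the largest gap were all at 5 to 8 tags in the GFP-positive lists. The first, chr17:40761541-40761932, had 36 and 38 tags in the GFP-negative lists, against 6 and 7 tags in the GFP-positive lists. Its percentiles were 91.6 and 90 in GFP-negative cells, against 9.83 and 5.88 in GFP-positive cells. The strongest peaks of the 4 lists did not all overlap in this region, so its values came in part from different positions within 392 bp. The second, chr6:34547750-34547926, had 33 and 31 tags in the GFP-negative lists, against 6 and 7 tags in the GFP-positive lists, with a gap of 77.23 points. The region chr3:4051531-4051949 followed with 27 and 30 tags in the GFP-negative lists, against 6 and 7 tags in the GFP-positive lists. These 3 regions shared their GFP-positive tag values and differed in GFP-negative height. The fourth, chr18:1265802-1266109, had 24 and 23 tags in the GFP-negative lists, against 6 and 7 tags in the GFP-positive lists. The fifth, chr2:33692679-33693277, had 30 and 29 tags in the GFP-negative lists, against 5 and 8 tags in the GFP-positive lists. In all 5 the strongest GFP-positive library stayed below the weakest GFP-negative one in scaled height as well. Tags are not scaled for depth. The log2 ratios of GFP-negative to GFP-positive scaled height were 1.95, 1.74, 1.57, 1.30 and 1.66 in this order.

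The members that ranked highest outside the periderm were a different set. The tallest, chr8:10721607-10722152, had 96 and 97 tags in the GFP-negative lists, against 12 and 15 tags in the GFP-positive lists. Its scaled height was 2.26 and 2.58 in GFP-negative cells, against 0.482 and 0.509 in GFP-positive cells, a log2 ratio of 2.29. The region chr9:8152399-8152852 had 75 and 84 tags in the GFP-negative lists, against 12 and 14 tags in the GFP-positive lists. Its gap of 29.48 points was modest, although its log2 ratio was 2.05. A narrow region of 163 bp, chr21:4648240-4648402, had 67 and 73 tags in the GFP-negative lists, against 11 and 13 tags in the GFP-positive lists. The region chr7:26429553-26429887 had 70 and 72 tags in the GFP-negative lists, against 11 tags in each GFP-positive list. The last of these, chr18:48160943-48161715, had 60 and 73 tags in the GFP-negative lists, against 11 and 14 tags in the GFP-positive lists.

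**Figure D2:**
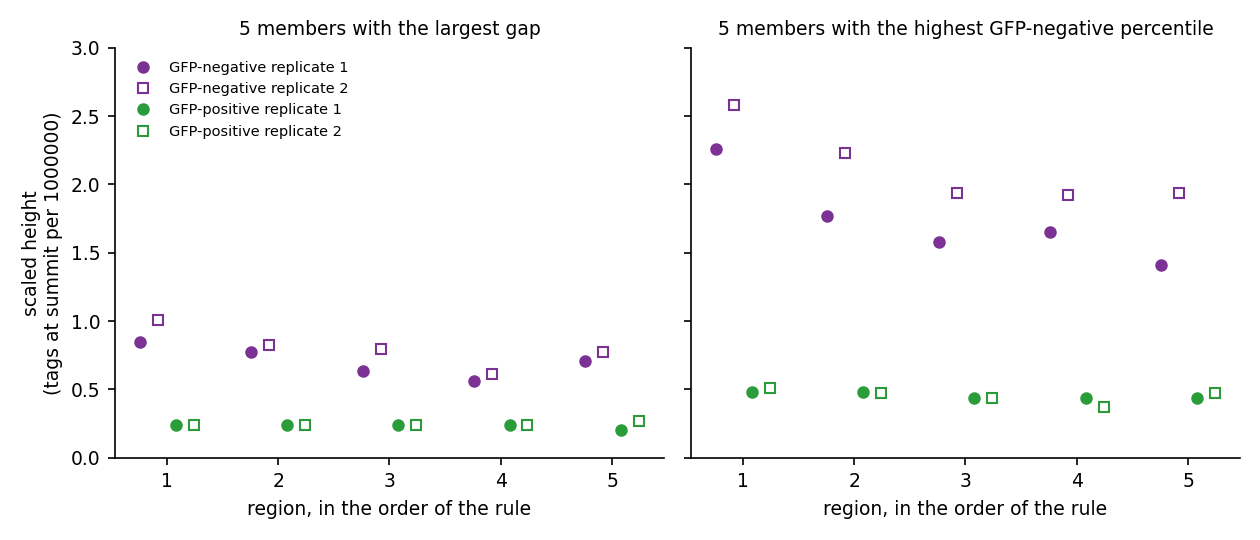
Scaled height (tags at the summit per 1000000 implied tags, vertical axis) in each of the 4 lists for the 5 members with the largest gap and the 5 with the highest GFP-negative percentile, in the order given in the text. GFP-negative points are drawn left of GFP-positive points. The right-hand regions reached 2.58 in GFP-negative cells, against at most 0.509 in GFP-positive cells.

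The limit of 25 points passed through many regions of near-equal gap. Just inside it, chr1:35437938-35438104 had 32 and 22 tags in the GFP-negative lists, against 6 and 13 tags in the GFP-positive lists, with a gap of 25.03 points. The regions chr3:1760345-1760512 and chr4:2849540-2849823 had the same gap, as did 10 members in all. Just outside, chr1:20553447-20553773 had 42 and 32 tags in the GFP-negative lists, against 11 and 10 tags in the GFP-positive lists, with a gap of 24.96 points. The regions chr2:3575154-3575640 and chr5:104614-104985 stood at that same value, which 19 shared regions had. Within 1 point of the limit there were 261 members above it and 371 regions below it. The log2 ratios of scaled height were 1.03, 0.58 and 0.76 for the included regions named here, in this order. For the excluded regions they were 1.25, 1.11 and 0.95, so the 2 ranges overlapped. Between the lowest GFP-negative and the highest GFP-positive list the log2 ratios were 0.41, 0.09 and 0.41 for the included regions. For the excluded regions they were 0.95, 0.95 and 0.58. Ranked only among shared regions, the gaps were 11.78, 2.31 and 11.78 points inside the limit, against 43.43, 28.99 and 34.21 points outside. On these last 2 measures the excluded regions named here stood further apart.

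The size of the class depended on how values were ranked. By the mirrored rule, 511 shared regions (0.461%) ranked at least 25 points higher in the GFP-positive lists, so members outnumbered them by 2.80 on the log2 scale. The whole-list percentile also counts peaks outside the shared regions, and these made up more of the longer lists. Peaks inside shared regions were 25.5% and 37.2% of the GFP-negative lists, and 36.6% and 63.3% of the GFP-positive lists. When regions were ranked only among the 110754 shared regions, 2866 (2.59%) led by 25 points in GFP-negative lists and 3221 (2.91%) in GFP-positive lists. The log2 ratio of the classes was then -0.17. With tied values given the average rank it was -0.01, with 3231 and 3245 regions, and with the lowest rank it was 0.18, with 3645 and 3227 regions. On this ranking the classes were thus of near-equal size, and which was larger depended on the tie rule.

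**Figure D3:**
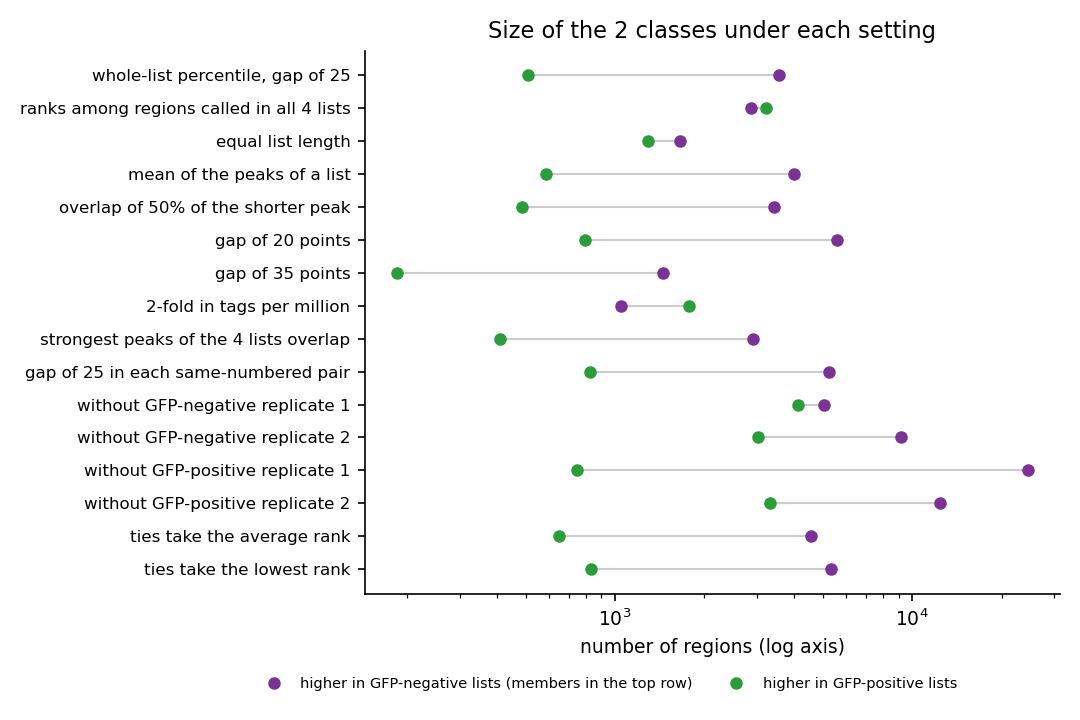
Number of regions (horizontal log axis) that ranked higher in GFP-negative lists and in GFP-positive lists under the stated rule (top row, 3556 and 511) and under each other setting. Under ranks among shared regions the numbers were 2866 and 3221.

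On ranks among shared regions most members kept their direction, and fewer kept the size of the gap. This ranking reorders the values that chose the members, so a kept direction is largely set by the rule. It also asks less than a gap of 25 points. Ranked among shared regions, 3387 members (95.2%) still had both GFP-negative values above both GFP-positive values, where 23.7% of all shared regions did. In the other 169 members the groups overlapped on this ranking. A gap of 25 points was kept by 1219 members (34.3%), where 2.59% of all shared regions (2866) had one. The other 2337 members had a smaller one. The 1219 members were 42.5% of those 2866 regions, so most regions with this gap were not members. On this ranking, the median member stood at 40.4 and 44.9% in the GFP-negative lists, against 7.43 and 18.3% in the GFP-positive lists. The median member was therefore below the middle of the shared regions in all lists, while the upper quartiles of the members were 55.3 and 58.8% in the GFP-negative lists, against 11.7 and 24.2% in the GFP-positive lists. The 1219 regions that held on both rankings were singled out after the data were seen. Their medians were 30 and 28 tags in the GFP-negative lists, against 9 tags in each GFP-positive list.

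**Figure D4:**
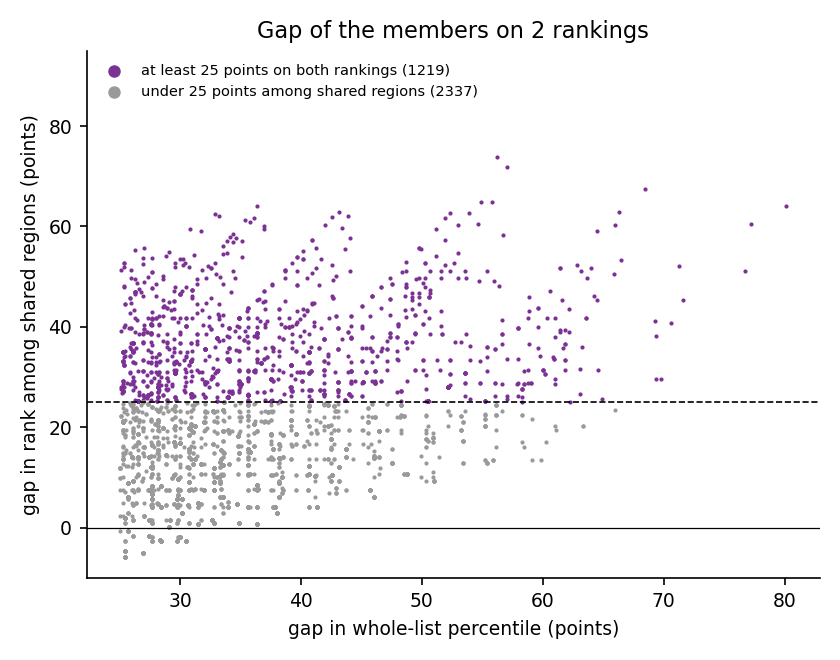
Each of the 3556 members by its gap in whole-list percentile (horizontal axis, points) and in rank among shared regions (vertical axis, points). The dashed line is 25 points, and 1219 members lay on or above it. The columns of points reflect tied tag values.

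Scaled height gave a second view of the same libraries. The log2 ratio of GFP-negative to GFP-positive scaled height, averaged over the lists of a group, had a median of 0.70 in members (quartiles 0.47 and 1.00), against -0.06 over all shared regions. This centre differed by replicate, at -0.25 in replicate 1 and 0.14 in replicate 2 over all shared regions, where members had 0.65 and 0.76. The member medians lay above those of all shared regions in both replicates, a direction that the rule selected for. In 3192 members (89.8%) the groups did not overlap on this scale, against 20.9% of all shared regions. In the other 364 (10.2%) they overlapped, so these were members by percentile and not by scaled height. A difference of at least 2-fold between the nearest lists was seen in 391 members (11%), against 0.944% of shared regions (1046). All 391 were among the 1219 regions that held on both rankings. Of those 1046 regions 37.4% were members, and 48.9% were left out because a GFP-positive percentile was over 75. By the mirrored 2-fold limit, more shared regions (1774) were higher in the GFP-positive lists. These shares use the lists that chose the members, and nothing is read from them beyond description.

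Regions were also chosen by the gap in 1 replicate number and measured in the lists of the other. The percentiles of the measured lists had no part in that gap. Those lists were still not independent of the choice, since every region needed a peak in all 4 lists, which also set its bounds. With a gap of 25 points in replicate 1, 11242 shared regions were chosen, and 83.9% of them were higher in the GFP-negative list of replicate 2, where 77.9% of all shared regions were. A gap of 25 points was repeated by 46.7% of them, against 22.7% of all. Chosen on replicate 2, 25120 regions were higher in GFP-negative replicate 1 in 76.8% of cases, against 66.4% of all, and 20.9% repeated the gap, against 10.2%. On ranks among shared regions, where the background lay near the middle, the direction was kept by 72.4% when chosen on replicate 1 (48.7% of all) and by 73% when chosen on replicate 2 (48.9% of all). On either ranking a gap of 25 points cannot occur above 75 in the GFP-positive list, in the choosing and the measured replicate alike. The choice thus limited GFP-positive height, so all shared regions are no matched background for these shares. With 2 libraries per group, the smallest two-sided p of an exact permutation test over libraries is 0.333, and regions are not replicates, so no region was tested.

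Under the stated rule, members were of ordinary width but unequal in the width of their peaks. The median region spanned 239.5 bp (quartiles 170 and 333.2 bp), against 235 bp for all shared regions. The median was 289 bp for the 1219 members held on both rankings, and 318 bp for regions chosen on ranks among shared regions. The strongest peak of a member had a median width of 189.5 and 163 bp in the GFP-negative lists, against 99 and 84 bp in the GFP-positive lists. Over all shared regions it was 184 and 158 bp in the GFP-negative lists and 158 and 129 bp in the GFP-positive lists. It was wider in both GFP-negative lists than in both GFP-positive lists in 2345 members (65.9%), against 34.3% of shared regions. Width and height come from the same pileup, so this is no independent measure.

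Position within a region was less often shared. The strongest peaks of all lists had a common overlap in 2908 members (81.8%), against 92.6% of all shared regions. The centres of the strongest peaks lay a median of 23 bp apart between groups in members, against 16 bp in all shared regions. The 511 regions of the mirrored class were like the members in both, at 80.2% and 22.2 bp. Neither value was thus particular to the members. The common overlap was 90% for regions chosen on ranks among shared regions. The widest members showed merging most plainly. The region chr3:26913321-26914865 joined 11 peaks over 1545 bp, with 44 and 35 tags in the GFP-negative lists, against 11 and 10 tags in the GFP-positive lists. Next came chr7:28437020-28438391 with 10 peaks, and chr13:24874087-24875280 with 6 peaks over 1194 bp. In none of these 3 did the strongest peaks of all lists overlap.

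Among members with a gap of at least 40 points, the closest replicates were at chr13:53026067-53026435. Its percentiles were 87.9 and 88 in the GFP-negative lists, against 22.6 and 24.4 in the GFP-positive lists. In tags these were 27 and 33 in the GFP-negative lists, against 7 and 9 in the GFP-positive lists. The regions chr3:28513821-28514093 and chr17:1472084-1472269 had the same 7 and 9 GFP-positive tags, with 17 and 20 GFP-negative tags on chromosome 3 and 15 and 17 on chromosome 17. Their log2 ratios of scaled height were 1.35, 0.66 and 0.45 in this order.

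Members were spread over the genome. The nearest other member was a median of 102.5 kb away (quartiles 35.9 and 234.8 kb), and 60 members had another within 1 kb. Within 10 kb, 369 members (10.4%) had another member, whereas 7.62% of the other shared regions had a member that close. Regions called in both GFP-negative lists and in no GFP-positive list, of which there were 39772, lay within 10 kb of 53.1% of members, against 49.9% of all shared regions. The 10906 regions called only in both GFP-positive lists lay within 10 kb of 14.3% of members, against 16.5% of all shared regions. For the 511 regions of the mirrored class these shares were 44.6% and 26.2%. The differences of the members from the shared regions were a few percentage points, and they rest on calls from the same libraries.

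Every chromosome held members, between 2.7% of the shared regions on chromosome 6 and 3.59% on chromosome 16. The counting intervals (95%, Wilson) of these extremes were 2.28 to 3.19% and 3.09 to 4.16%, which overlapped. They cover counting error only and treat neighbouring regions as independent. These chromosomes were picked as the extremes, and overlap of separate intervals shows neither an even spread nor a difference. On chromosome 4 the share was 3.47%, and in bins of 10 Mb it ran between 2.77 and 4.55% with no bin empty.

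**Figure D5:**
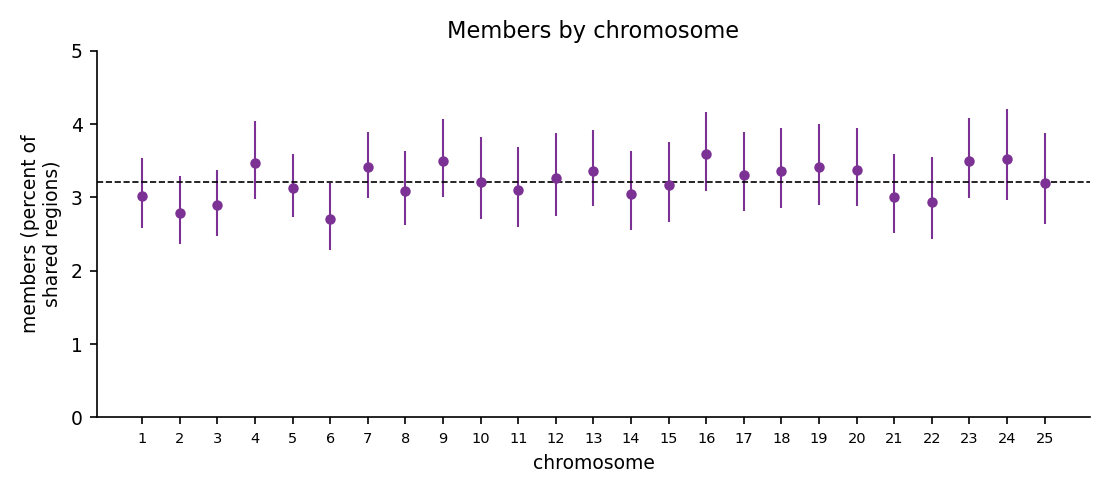
Members as a percent of the shared regions (vertical axis) of each chromosome (horizontal axis). Bars are 95% Wilson intervals and the dashed line is the share over all chromosomes, 3.21%. All chromosomes lay between 2.7 and 3.59%.

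In fixed tiles of 100 kb, 3 tiles held 5 members each, and none held more. The first, chr9:33700001-33800000, had 14 shared regions, and the others, on chromosomes 11 and 17, had 22 and 16. None of the 3 held a region of the mirrored class, but only 0.461% of all shared regions belonged to it, so nothing is read from this. The tiles were picked for their number of members. The tile on chromosome 9 mixed strong and weak members. The region chr9:33760704-33761021 had 43 and 44 tags in the GFP-negative lists, against 11 and 15 tags in the GFP-positive lists. Its neighbour chr9:33768142-33768573 had 29 and 26 tags in the GFP-negative lists, against 7 and 6 tags in the GFP-positive lists, and a gap of 61.42 points. At chr9:33794716-33795056 there were 24 tags in each GFP-negative list, against 9 tags in each GFP-positive list. These 3 held on both rankings, and their log2 ratios of scaled height were 1.20, 1.52 and 0.85 in this order. The remaining members, chr9:33772468-33772868 and chr9:33781416-33781566, had gaps of 12.73 and 7.48 points when ranked among shared regions.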

How the data were processed

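The 4 lists of ATAC-seq peaks were analysed as deposited. Per the study's methods, the authors mapped trimmed reads to danRer7 (Bowtie 2), discarded duplicate and long fragments, and called peaks with MACS2. The version was 2.1.1 in the submitters' processing notes, which name danRer10. Each library has its own deposited list, so peaks were taken to be called by library. Positions, printed counted from 1, follow danRer7. The study's zv9 intervals at cldne fell on peaks. The deposited value has no column name. It was read as the ratio, or fold enrichment, that the authors' peak caller gave over a constant background, because each list has 1 step of which its values are whole multiples (tolerance 0.000166 steps). Tags were implied from that step, a genome size of 1400000000 bp and an extension of 54 bp. They are not read counts.

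Python 3.11.15, numpy 2.4.6, pandas 2.3.3 and scipy 1.17.1 were used, and functions were tested on simulated lists. The rule does not say how ties rank. A peak here takes the share of peaks at or below its value, a choice made after the member counts under all 3 tie rules had been seen. Members, lists and named regions were chosen with earlier results of these data known. Regions were named by gap, GFP-negative percentile, closeness to the limit, width, replicate closeness and the fullest tile. The cldne check, the 1219 regions on both rankings and the counts of low tags were added after seeing the data. Distances to genes were not analysed here.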

Additional observations from a re-analysis of the deposited data

How the results depend on the processing

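Counts below are of regions higher in GFP-negative lists and of the mirrored class, in this order. With tied values given the average or the lowest rank, added after seeing the data, there were 4574 and 649 or 5329 and 829 regions, and 3556 and 3539 members were kept. Ranks among shared regions gave 2866 and 3221 (log2 ratio -0.17). Lists cut to an equal length of 190059 peaks gave 1655 and 1290 (0.36), and 543 members overlapped one of these. A 2-fold limit in scaled height (tags at the summit per 1000000 implied tags) gave 1046 and 1774 (-0.76). A gap of 20 points gave 5580 and 790, and 35 points gave 1447 and 184 (2.98). Requiring the gap within each same-numbered pair (the replicate block) gave 5251 and 821. Whether a number marks 1 batch is not given in the sources used here. Differences between replicates 1 and 2 had a correlation of 0.00 between groups across shared regions, which cannot show whether a number marks 1 batch. The stated rule did not use the numbers as pairs. Same-numbered lists were compared in the replicate block, the choice by replicate number and the log2 ratios by replicate.

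Leaving out 1 list gave 5036 to 24573 and 743 to 4129 regions, with log2 ratios of 0.29 to 5.05. Leaving out GFP-positive replicate 1 gave the 24573, and leaving out GFP-negative replicate 1 gave 0.29. The strongest peaks of the remaining lists then overlapped in 87.8 to 94.5%, and the median width was 182 to 214 bp. Another member lay within 10 kb in 12.8 to 42.3%. A GFP-negative-only region was near 59.5 to 96.7%, and a GFP-positive-only region near 23 to 77.9%. A group with 1 list left needed a peak in that list alone for its group-only regions. Shares over all shared regions were not computed for these settings, so these shares cannot be set against those of the stated rule.

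The overlap of strongest peaks was 90% on ranks among shared regions, 85.6% with a merging overlap of 50%, 83.6% at 20 points and 80.2% at 35 points. The width was 318 bp on ranks among shared regions, against 235 bp for all shared regions. Another member lay within 10 kb in 15.1% on those ranks, 15.2% at 20 points, 4.22% at 35 points, 13.8% under the replicate block and 32.2% within 50 kb. Except for the 50 kb distance, the number of regions differed between these settings, and no share over all shared regions was computed. The shares within 10 kb therefore cannot be set against each other or against that of the stated rule. A GFP-negative-only region was near 58.3% on those ranks, 50.8% with the overlap of 50% and 94.6% within 50 kb. A GFP-positive-only region was near 13% on those ranks and 51.8% within 50 kb. Over all shared regions the last 2 shares within 50 kb were 92.9% and 55.1%. Of the other shared regions, 27.5% had a member within 50 kb. Direction in the other replicate was kept by 76.8% when chosen on replicate 2, against 66.4% of all shared regions. Chosen on replicate 1 by ranks among shared regions, it was kept by 72.4%, against 48.7%. All shared regions are no matched background for these shares. The causes were not tested. The GFP-positive values of the members were 5 to 17 implied tags, which limits their precision.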
